A study of Mus musculus with 6 samples.

Results

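The NRF2-KEAP1 pathway and the enzymes of NADPH and glutathione synthesis that it serves were examined in liver tumors of β-catenin mutant mice. The 31 genes were chosen by name from 35527 genes by symbol, with earlier results of these data known. They encode NRF2 and its regulators (6 genes), glutathione synthesis and recycling (5), NADPH production and the pentose phosphate pathway (5), the thioredoxin system (4), detoxification of quinones, heme products and carbonyls (9) and export pumps (2). Levels are given as TPM, a share of all transcripts after division by transcript length that is scaled to the same sum in each tumor. Every one of the 31 averaged 1 TPM or more, as did 12512 genes of the whole table, which are called expressed genes below, and 17 of the 31 lay in the top 10% of those by mean.

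The samples were 6 macroscopic tumors, 3 from mouse 2 and 3 from mouse 1, and both animals belonged to the same condition. Both were male CMRtdT mice on a C57BL/6 background, which carry a *Ctnnb1* allele with loxP sites around exon 3, the *MUP-uPA* transgene that injures hepatocytes, and a tdTomato reporter at the *Rosa26* locus. A high-fat diet began at 6 weeks, AAV8-TBG-Cre, in which a hepatocyte promoter drives Cre, was injected at 8 weeks, and tumors were excised 6.5 months later. Tumors of a mouse share an animal, non-tumor liver is not analysed here, and mouse 2 against mouse 1 is the one comparison the labels allow.

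NRF2, encoded by *Nfe2l2*, is a transcription factor that is mainly controlled through the stability of its protein. KEAP1 hands it to a CUL3 ubiquitin ligase, and electrophiles or oxidants that modify KEAP1 let NRF2 accumulate, enter the nucleus and bind antioxidant response elements together with a small Maf protein. In liver its targets supply glutathione and NADPH and clear reactive metabolites, and their mRNAs are commonly read as a measure of NRF2 activity because the *Nfe2l2* mRNA does not report the protein.

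The start-site regions of 3 of the genes are shown. Of the 27 with a region to search, *Prdx1* and *Me1* alone hold TGACTCAGC, the stricter form searched of the antioxidant response element. *Nfe2l2* is shown because it encodes the factor that binds the element. The 3 regions come from RefSeq on GRCm38.p6, run 5′ to 3′ on the strand of the gene from 250 bases before to 50 after the start, and the capitals mark the match. *Prdx1* (chr4:116685349-116685648, plus strand) and *Me1* (chr9:86695865-86696164, minus strand) hold TGACTCAGC, with the match on the opposite strand in *Prdx1* and starting 133 bases before the start, and 6 bases before it in *Me1*. *Nfe2l2* itself (chr2:75704614-75704913, minus strand) holds TGACTCCGC 240 bases before its start, a match to the looser form TGACNNNGC.
Prdx1: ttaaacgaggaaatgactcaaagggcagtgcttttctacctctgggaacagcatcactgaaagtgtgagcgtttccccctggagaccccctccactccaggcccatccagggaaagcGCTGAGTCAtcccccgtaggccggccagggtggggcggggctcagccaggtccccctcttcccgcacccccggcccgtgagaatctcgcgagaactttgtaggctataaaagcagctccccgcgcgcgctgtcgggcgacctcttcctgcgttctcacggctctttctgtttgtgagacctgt
Me1: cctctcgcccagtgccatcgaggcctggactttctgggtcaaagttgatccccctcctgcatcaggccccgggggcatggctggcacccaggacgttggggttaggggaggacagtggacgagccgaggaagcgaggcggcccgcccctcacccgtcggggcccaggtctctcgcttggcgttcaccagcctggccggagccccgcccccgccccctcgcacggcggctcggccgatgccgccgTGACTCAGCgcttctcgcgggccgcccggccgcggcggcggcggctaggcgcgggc
Nfe2l2: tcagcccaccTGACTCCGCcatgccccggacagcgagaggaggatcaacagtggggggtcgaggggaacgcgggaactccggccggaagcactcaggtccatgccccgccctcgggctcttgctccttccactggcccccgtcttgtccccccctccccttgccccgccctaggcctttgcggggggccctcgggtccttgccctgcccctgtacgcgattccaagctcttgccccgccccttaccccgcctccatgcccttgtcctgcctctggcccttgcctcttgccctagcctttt
Both forms were searched on both strands, and every TGACTCAGC is also a TGACNNNGC. Of the 31 genes, 27 had such a region, and TGACNNNGC was found in 12 of them (44.4%), against 16.9% of the 9599 expressed genes with a region and 12.4% of all 32851 regions. These 12 were *Nfe2l2*, *Mafg*, *Mafk*, *Gclm*, *G6pdx*, *Pgd*, *Me1*, *Txnrd1*, *Srxn1*, *Prdx1*, *Ugdh* and *Abcc4*. The stricter TGACTCAGC was in 7.41% of the 27, against 0.490% of the 9599 genes and 0.454% of all regions. The letters of a region are a description and show no binding. Elements farther than 250 bases before the start were not searched, so a gene without a match may still hold one there.

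The tumors had 19130532 to 27681766 estimated counts, and mitochondrial transcripts took 27.2% to 37.2% of TPM in mouse 2 and 15.0% to 20.7% in mouse 1, which lowers the TPM of other genes in mouse 2. Tumor 1 of mouse 1 stood apart. Its 10 hepatocyte markers summed to 1653 TPM, against 30695 to 56645 TPM in the other 5 tumors, and each of the 10 was at least 2-fold lower there than in every other tumor. *Apoa2*, the most abundant of them, had 16095, 12726 and 26263 TPM in tumors 1, 2 and 3 of mouse 2, against 495, 17697 and 18456 TPM in mouse 1. In bulk tissue, fewer cells of a type and less RNA per cell cannot be told apart, and results that rest on this tumor are given with and without it. The pair closest to each other was tumors 2 and 3 of mouse 1, with a chi-square of 7.75 per degree of freedom between their counts, against 73.8 to 1299 for the other pairs, and both were kept as separate samples. Whether tumors of a mouse arose apart from each other was not tested, so p-values measure the spread between tumors of 1 animal.

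**Figure D1:**
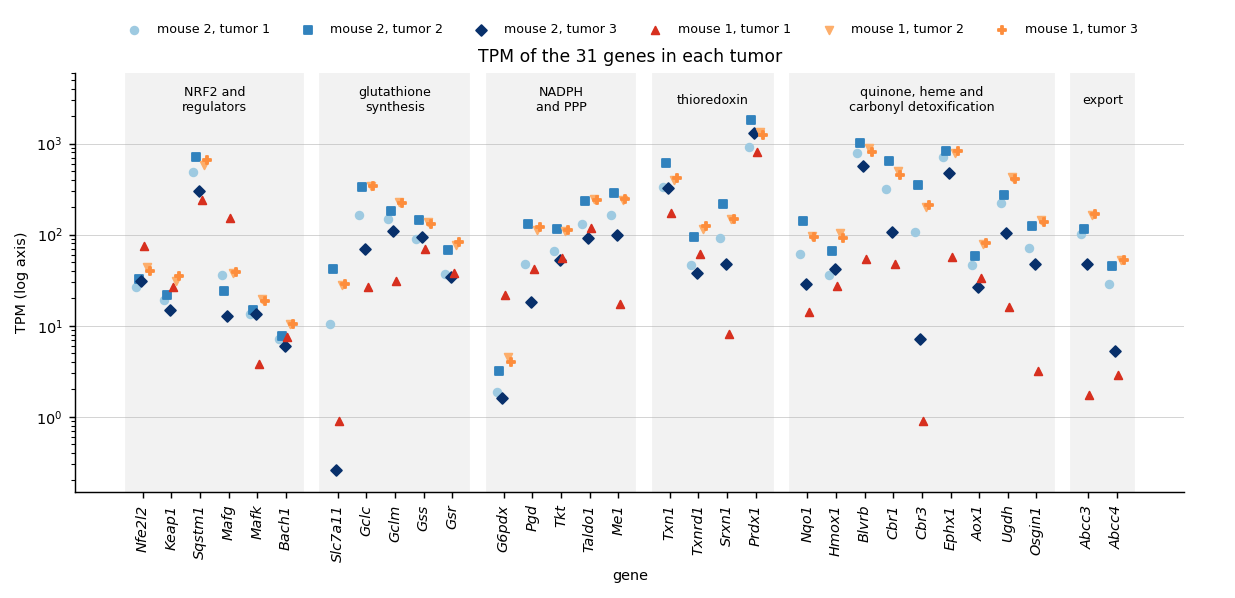
TPM of each of the 31 genes (log axis) in the 3 tumors of mouse 2 (blue) and the 3 of mouse 1 (red and orange), grouped by role, with each point 1 tumor. Tumor 1 of mouse 1 (red triangles) lies at the bottom for 19 of the 31 genes, against 21.9% of expressed genes, and at the top for 3, against 62.6% (27 and 2 by CPM with TMM factors, against 42.8% and 39.9%), and tumor 3 of mouse 2 (dark diamonds) is the lowest of the other 5 tumors for 27, against 53.6% of expressed genes.

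The mRNA of NRF2 varied less between tumors than those of most of its targets. *Nfe2l2* lies on chromosome 2 from 75675513 to 75704663 (GRCm38, as for all gene positions given) and had 26.5, 32.3 and 30.8 TPM in tumors 1, 2 and 3 of mouse 2, against 75.3, 44.3 and 39.8 TPM in mouse 1. By TPM it was highest in tumor 1 of mouse 1, and without that tumor it averaged 34.8 ± 7.18 TPM (SD, n = 5) with a 1.65-fold range. CPM (counts scaled to library size) with TMM factors, which align the bulk of the genes between tumors, were used as another scale. On it *Nfe2l2* had 70.0, 72.2 and 92.0 CPM in mouse 2, against 87.1, 83.1 and 72.5 CPM in mouse 1, so tumor 1 of mouse 1 was not the highest there. *Keap1*, the adaptor that targets NRF2 for degradation, lies on chromosome 9 from 21229730 to 21239332 and had 18.9, 22.0 and 15.0 TPM in mouse 2, against 26.6, 31.1 and 35.1 TPM in mouse 1. The ratio of *Keap1* to *Nfe2l2* TPM was 0.713, 0.680 and 0.488 in mouse 2, and 0.354, 0.703 and 0.882 in mouse 1, lowest in tumor 1 of mouse 1.

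*Sqstm1* encodes p62, an autophagy receptor that sequesters KEAP1, and was among the most abundant of the 31 genes. It had 487, 714 and 304 TPM in mouse 2, against 238, 586 and 658 TPM in mouse 1. Tumor 1 of mouse 1 and tumor 3 of mouse 2 were the lowest, and the mice overlapped.

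The small Maf partners of NRF2 took opposite positions in tumor 1 of mouse 1. *Mafg* had 35.7, 24.1 and 12.8 TPM in mouse 2, against 153, 38.2 and 39.2 TPM in mouse 1, while *Mafk* had 13.6, 14.9 and 13.5 TPM in mouse 2, against 3.80, 19.4 and 18.7 TPM in mouse 1. The ratio of *Mafg* to *Mafk* stood at 40.4 in tumor 1 of mouse 1, against 0.950 to 2.63 elsewhere. *Bach1*, a heme-sensitive repressor that competes with NRF2 for the same elements, had 7.21, 7.68 and 5.95 TPM in mouse 2, against 7.53, 10.4 and 10.3 TPM in mouse 1. Its 1.65-fold range over the 5 tumors was the same as that of *Nfe2l2*.

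Glutathione genes ranged from among the most variable of the set to among the steadiest. *Slc7a11*, the cystine importer xCT that feeds cysteine into glutathione, lies on chromosome 3 from 50364936 to 50499087 and had 10.3, 42.4 and 0.261 TPM in mouse 2, against 0.897, 27.9 and 28.5 TPM in mouse 1. It was near 0 in tumor 3 of mouse 2 and in tumor 1 of mouse 1, where 38 and 128 reads of its main transcript were assigned, and above 10 TPM in the other 4. *Gclc*, the catalytic subunit of glutamate-cysteine ligase and the rate-limiting enzyme of glutathione synthesis, had 164, 333 and 69.8 TPM in mouse 2, against 26.6, 338 and 346 TPM in mouse 1. *Gclm*, the modifier subunit, had 148, 181 and 108 TPM in mouse 2, against 31.3, 230.2 and 221 TPM in mouse 1. The ratio of *Gclc* to *Gclm* was 1.11, 1.84 and 0.644 in mouse 2, and 0.852, 1.47 and 1.57 in mouse 1, so the catalytic subunit was below the modifier in the same 2 tumors that were low in *Slc7a11*.

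*Gss*, glutathione synthetase, had 89.0, 146 and 94.2 TPM in mouse 2, against 69.6, 138 and 130.3 TPM in mouse 1. *Gsr*, which reduces oxidized glutathione with NADPH, had 36.8, 68.3 and 34.1 TPM in mouse 2, against 37.5, 77.5 and 83.2 TPM in mouse 1. Over the 5 tumors their ranges were 1.63-fold and 2.40-fold, against 4.90-fold for *Gclc* and 34.4-fold for *Slc7a11*, with 1 TPM added to each value before division here and in every fold range below.

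*G6pdx*, which encodes the first and rate-limiting enzyme of the oxidative pentose phosphate pathway, was the least abundant of the NADPH genes. It lies on chromosome X from 74409483 to 74428880 and had 1.87, 3.21 and 1.63 TPM in mouse 2, against 21.9, 4.53 and 4.04 TPM in mouse 1. By TPM the mice did not overlap and mouse 2 lay below mouse 1, as for 41.9% of expressed genes. Tumor 1 of mouse 1 was far above the other 5. *Pgd*, the next NADPH-producing enzyme of the pathway, had 47.1, 130.3 and 18.2 TPM in mouse 2, against 42.2, 112 and 121 TPM in mouse 1. The ratio of *Pgd* to *G6pdx* stood at 1.93 in tumor 1 of mouse 1, against 11.2 to 40.6 elsewhere, with the lowest of these in tumor 3 of mouse 2.

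The non-oxidative branch varied less than *Pgd* over the 5 tumors other than tumor 1 of mouse 1, but not less than *G6pdx*. The ranges were 2.18-fold for *Tkt* and 2.67-fold for *Taldo1*, against 6.82-fold for *Pgd* and 2.11-fold for *G6pdx*. *Tkt*, transketolase, had 66.3, 115 and 52.3 TPM in mouse 2, against 55.1, 109 and 111 TPM in mouse 1, and *Taldo1*, transaldolase, had 132, 236 and 92.0 TPM in mouse 2, against 119, 247 and 243 TPM in mouse 1. For *Tkt* only 25.4% to 31.7% of the TPM was assigned to transcripts annotated as coding, and 1 transcript without a defined coding sequence held most of the rest. *Me1*, the cytosolic malic enzyme and another source of NADPH, had 166, 283 and 100.2 TPM in mouse 2, against 17.4, 239 and 244 TPM in mouse 1, and was more than 5-fold lower in tumor 1 of mouse 1 than in any other tumor. That tumor thus held the highest *G6pdx* and the lowest *Me1* of the 6.

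The thioredoxin system was abundant in all 6 tumors. *Prdx1*, a peroxiredoxin that removes hydrogen peroxide, had the highest mean of the 31 genes, with 921, 1794 and 1319 TPM in mouse 2, against 798, 1347 and 1242 TPM in mouse 1. *Txn1*, the thioredoxin that recycles it, had 330.1, 607 and 327 TPM in mouse 2, against 171, 396 and 421 TPM in mouse 1. *Txnrd1*, the NADPH-dependent reductase of thioredoxin, had 46.1, 93.5 and 38.0 TPM in mouse 2, against 60.9, 115 and 124 TPM in mouse 1. Named copies that could share their reads, *Prdx1-ps* and *Txn-ps1*, were listed at 0 TPM in every tumor, and other copies were not searched. *Srxn1*, sulfiredoxin, which repairs overoxidized peroxiredoxins, was the most variable of this group, with 91.6, 215 and 47.4 TPM in mouse 2, against 8.01, 148 and 148 TPM in mouse 1.

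The widest spread lay among the detoxification genes. *Nqo1*, a quinone reductase often used as the reporter of NRF2 activity, lies on chromosome 8 from 107388225 to 107403205 and had 60.5, 143 and 28.7 TPM in mouse 2, against 14.1, 97.6 and 93.1 TPM in mouse 1. Per *Nfe2l2* TPM this was 2.28, 4.41 and 0.930 in mouse 2, and 0.187, 2.20 and 2.34 in mouse 1. The mRNA of NRF2 and that of its reporter gene were therefore not in a fixed ratio, and tumor 1 of mouse 1 combined the lowest *Nqo1* with the highest *Nfe2l2* by TPM, the second of which did not hold on the TMM scale.

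*Cbr1* and *Cbr3* are neighbouring carbonyl reductase genes on chromosome 16. *Cbr3* lies on chromosome 16 from 93683219 to 93690991 and had 107, 350.0 and 7.22 TPM in mouse 2, against 0.91, 200.3 and 211 TPM in mouse 1, the widest range of the 31 genes over 5 tumors (42.7-fold). *Cbr1* had 319.9, 639 and 108 TPM in mouse 2, against 48.0, 499 and 456 TPM in mouse 1. The ratio of *Cbr1* to *Cbr3* reached 15.0 in tumor 3 of mouse 2 and 52.7 in tumor 1 of mouse 1, against 1.83 to 2.99 in the 4 tumors left.

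*Hmox1*, heme oxygenase, had 36.1, 65.4 and 42.2 TPM in mouse 2, against 27.6, 104 and 92.2 TPM in mouse 1, and was 1 of the 4 genes for which tumor 3 of mouse 2 was not the lowest of the 5. *Blvrb*, a biliverdin and flavin reductase, had 778, 1005 and 561 TPM in mouse 2, against 54.0, 899.9 and 817 TPM in mouse 1. *Ephx1*, the microsomal epoxide hydrolase, had 714, 819 and 471 TPM in mouse 2, against 56.3, 788 and 819 TPM in mouse 1. Both had ranges over the 5 tumors, 1.79-fold and 1.74-fold, near the median of 1.79 over expressed genes, and were low in tumor 1 of mouse 1 alone.

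*Ugdh*, which makes the UDP-glucuronic acid used for conjugation, had 224, 269.7 and 105 TPM in mouse 2, against 15.9, 426 and 413 TPM in mouse 1. *Osgin1*, a stress-induced growth inhibitor, had 70.7, 124 and 47.3 TPM in mouse 2, against 3.22, 143 and 138 TPM in mouse 1. *Aox1*, aldehyde oxidase, had 46.3, 58.1 and 26.9 TPM in mouse 2, against 33.3, 79.4 and 80.4 TPM in mouse 1. For *Ugdh*, *Osgin1* and *Aox1* the highest values came from tumors 2 and 3 of mouse 1, and the lowest of mouse 2 from its tumor 3.

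Both export pumps followed the same order. *Abcc3* (MRP3), a basolateral exporter of conjugates, had 100.5, 115 and 47.0 TPM in mouse 2, against 1.72, 164 and 170.3 TPM in mouse 1, and 62.2% to 100% of this was on coding transcripts. *Abcc4* (MRP4) had 28.8, 45.8 and 5.29 TPM in mouse 2, against 2.90, 52.9 and 53.3 TPM in mouse 1. The 2 pumps had a sum of 52.3 TPM in tumor 3 of mouse 2, and of 4.62 TPM in tumor 1 of mouse 1, against 129 to 224 TPM in the 4 tumors left.

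**Figure D2:**
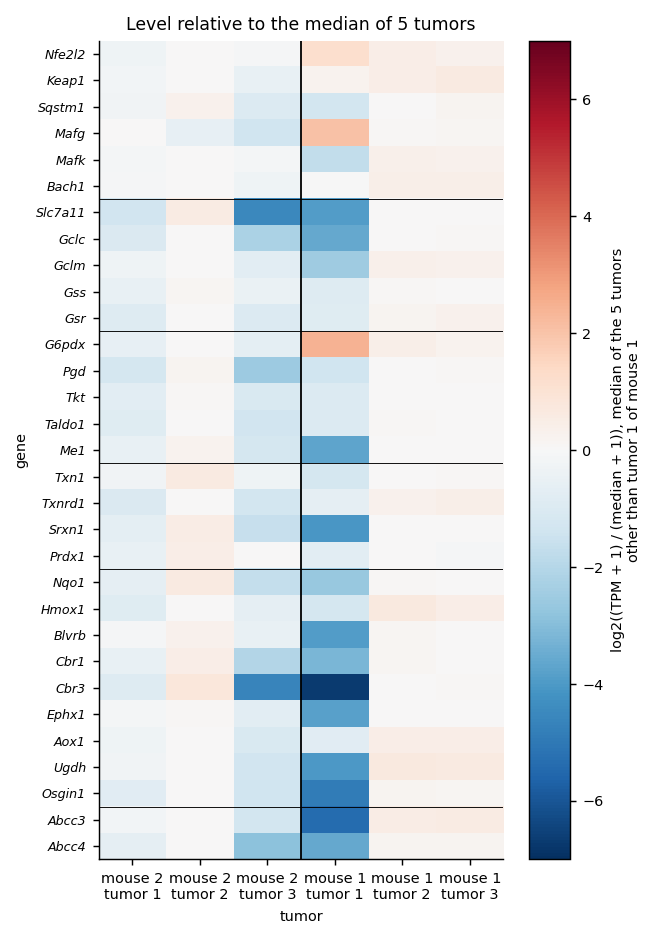
Difference of each gene in each tumor from its median over the 5 tumors other than tumor 1 of mouse 1, as log2 of TPM + 1, with genes in rows by role and tumors of mouse 2 left of those of mouse 1. Tumor 1 of mouse 1 is blue for most targets and red for *Nfe2l2* (which was not highest there on the TMM scale), *Mafg* and *G6pdx*, and tumor 3 of mouse 2 is blue for *Slc7a11*, *Cbr3* and *Abcc4*.

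The first question was whether the pathway differed between the mice, and no such difference passed the test. With 6 tumors, edgeR's quasi-likelihood test with Benjamini-Hochberg adjustment called 0 of the 31 genes in either direction, as it did 0 (0%) of 13259 genes higher and 0 (0%) lower, and 1 of the 31 had an unadjusted p under 0.05, against 1448 genes (10.9%). Standard errors of the log2 fold changes ran from 0.25 for *Nfe2l2* to 1.80 for *Cbr3*, so differences of several fold in the most variable genes were not detectable here. Of the 31 log2 fold changes 24 were positive and 7 negative, with a median of 0.26, against -0.05 over all genes tested. DESeq2 called 133 genes higher and 69 lower in mouse 2 of the 12433 it tested, and none of the 31.

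Without tumor 1 of mouse 1, edgeR called 56 genes higher (0.419%) and 112 lower (0.838%) of 13365 in mouse 2, and again 0 of the 31. In that fit 14 of the 31 log2 fold changes were positive and 17 negative, with a median of -0.06, against 0.01 over all genes. An unadjusted p under 0.05 was found for 1 of the 31, against 2675 of the 13365 genes tested. The smallest adjusted p among the 31 was 0.153 in that fit by edgeR and 0.421 with 6 tumors. Without tumor 1, mouse 1 was represented only by the closest pair of tumors, with a chi-square of 7.75 per degree of freedom. The spread within mouse 1 may therefore be understated in that fit, and its p-values and counts of called genes carry this limit.

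The gene with the smallest p was *G6pdx* in both fits. Its log2 fold change was -1.58 with 6 tumors (SE 0.57, adjusted p = 0.421, edgeR) and -0.77 without tumor 1 of mouse 1 (SE 0.23, adjusted p = 0.153, edgeR). By TPM it was lower in each of the 3 tumors of mouse 2 than in each of mouse 1, as were 41.9% of expressed genes. Its main transcript had 55.0 to 88.0 reads in mouse 2, against 172 to 821 in mouse 1, and its copy *G6pd2* was listed at 0 TPM in every tumor. *Mafg* followed tumor 1 of mouse 1, with a log2 fold change of -0.80 with 6 tumors (SE 0.63, adjusted p = 0.681, edgeR) and 0.07 without that tumor.

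The thioredoxin genes were at the other end. *Txn1* had a log2 fold change of 0.96 (SE 0.58, adjusted p = 0.590, edgeR) and 0.56 without tumor 1 of mouse 1, and *Prdx1* had 0.92 (SE 0.63, adjusted p = 0.636, edgeR) and 0.57 without it. Of the other 4 genes with the smallest p, *Gss* had 0.58 (SE 0.50), *Blvrb* 0.93 (SE 1.02), *Mafk* 0.61 (SE 0.72) and *Ephx1* 0.78 (SE 1.04), with adjusted p of 0.703 to 0.798 by edgeR. None of these passed the test.

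By TPM, the 3 tumors of mouse 2 lay below all 3 of mouse 1 for 4 of the 31 genes, *Nfe2l2*, *Keap1*, *Mafg* and *G6pdx*, against 41.9% of 12512 genes, and above them for 0, against 1.74% of genes. On the TMM scale, 1 of the 31 lay below, *G6pdx*, against 13.8% of genes, and 3 lay above, *Txn1*, *Prdx1* and *Blvrb*, against 13.6%. *G6pdx* was thus the one gene of the 31 that did not overlap between the mice in the same direction on both scales, and for *Nfe2l2*, *Keap1* and *Mafg* the separation depended on the scale. The share of all genes that separated on both scales was not counted, so this does not mark *G6pdx* out from the whole table.

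**Figure D3:**
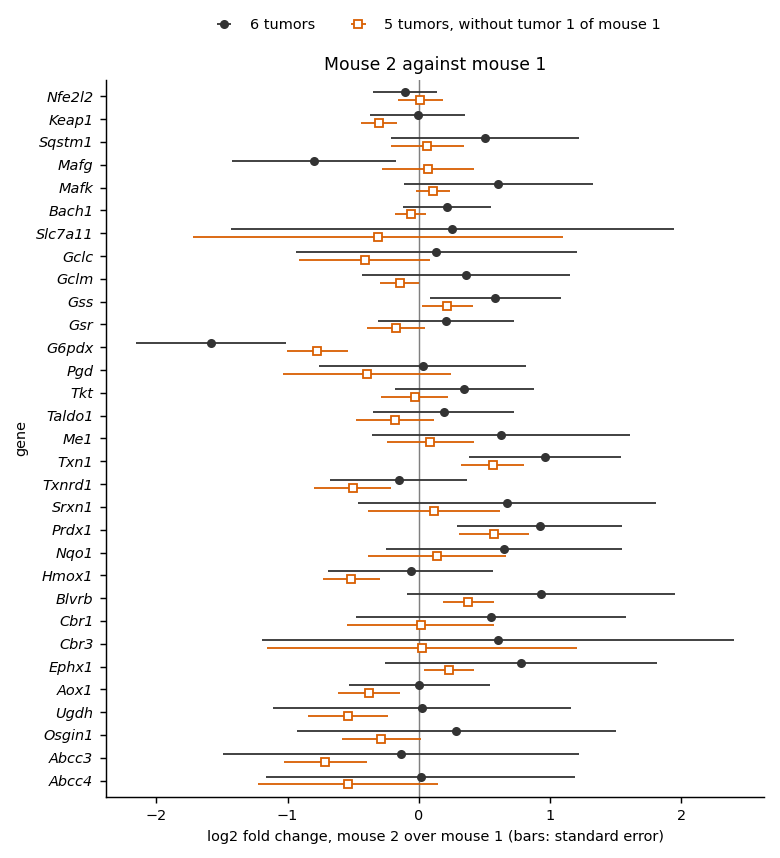
Log2 fold change of mouse 2 over mouse 1 (horizontal axis, bars are standard errors from edgeR) for each of the 31 genes, with 6 tumors (filled circles) and without tumor 1 of mouse 1 (open squares). The values run from -1.58 (*G6pdx*) to 0.96 (*Txn1*) with 6 tumors and from -0.77 to 0.57 without that tumor, and the bars of most genes cross 0.

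The second question was how far the pathway varied among tumors of 1 condition, and the differences between tumors were large. These patterns were chosen after the values were seen and are given as descriptions. In tumor 1 of mouse 1, 12 of the 31 genes were at least 2-fold lower than in each of the other 5 tumors on TPM + 1, against 11.7% of 12512 genes, and 2, *Mafg* and *G6pdx*, were at least 2-fold higher, against 36.6% of genes. The 12 were *Mafk*, *Gclc*, *Gclm*, *Me1*, *Srxn1*, *Blvrb*, *Cbr1*, *Cbr3*, *Ephx1*, *Ugdh*, *Osgin1* and *Abcc3*. The median ratio of this tumor to the median of the other 5 was 0.382 over the 31 genes, against 1.85 over all genes, and on the TMM scale it was 0.182, against 0.954. On that scale 24 genes were at least 2-fold lower, against 22.4% of genes, and 1, *G6pdx*, was at least 2-fold higher, against 18.3%.

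By role, tumor 1 of mouse 1 was at least 2-fold lower than every other tumor for 6 of 9 detoxification genes, 2 of 5 glutathione genes, 1 of 5 NADPH genes, 1 of 4 thioredoxin genes, 1 of 6 regulators and 1 of 2 pumps. The low values came with those of the hepatocyte markers, all 10 of which were at least 2-fold lower in that tumor. The macrophage marker sum was 114 TPM in it, against 235 to 882 TPM elsewhere. Endothelial markers summed to 12.4 TPM, against 44.0 to 100.2 TPM, while cholangiocyte markers summed to 44.2 TPM, against 4.61 to 36.4 TPM. The part of the cell makeup in these values was not tested.

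Among the other 5 tumors, tumor 3 of mouse 2 was low across the pathway. It was the lowest of the 5 for 27 of the 31 genes, against 53.6% of 12512 genes, and at least 2-fold lower than each of the other 4 for 9, against 2.53% of genes. The 9 were *Slc7a11*, *Gclc*, *Pgd*, *Nqo1*, *Cbr1*, *Cbr3*, *Ugdh*, *Abcc3* and *Abcc4*. With 0.1 TPM added in place of 1, the same 9 were at least 2-fold lower in this tumor, against 5.85% of genes. *Nfe2l2*, *Gss*, *Prdx1* and *Hmox1* were the 4 for which it was not the lowest. On the TMM scale it was the lowest for 22, against 29.2% of genes, and at least 2-fold lower for 6, against 2.05%, namely *Slc7a11*, *Gclc*, *Pgd*, *Cbr1*, *Cbr3* and *Abcc4*. At least 4-fold lower were 3 genes, *Slc7a11*, *Cbr3* and *Abcc4*, against 0.448% of genes.

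Tumor 2 of the same mouse stood at the opposite end. It was the highest of the 5 for 14 of the 31 genes, against 15.2% of genes, and for 19 on the TMM scale, against 19.0%. All 31 genes were higher in tumor 2 than in tumor 3 of mouse 2, against 73.3% of genes, with a median ratio of 2.18, against 1.22 over all genes. On the TMM scale 28 of the 31 were higher, against 49.0% of genes, with a median ratio of 1.70, against 1.00. These 2 tumors came from the same liver, and each is 1 library, so the difference has no replicate check.

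Over the 5 tumors the 31 genes had a median fold range of 2.81, against 1.79 over expressed genes. The range was above 2-fold for 23, against 35.2% of genes, and above 4-fold for 9, against 5.02%. Adding 1 TPM narrows the ranges of genes of low level more than those of abundant genes, and the comparison was not matched for level. The 9 were *Cbr3* (42.7-fold), *Slc7a11* (34.4-fold), *Abcc4* (8.63-fold), *Pgd* (6.82-fold), *Cbr1* (5.87-fold), *Gclc* (4.90-fold), *Nqo1* (4.84-fold), *Srxn1* (4.46-fold) and *Ugdh* (4.02-fold). The steadiest were *Mafk* (1.41-fold), *Gss* (1.63-fold), *Nfe2l2* (1.65-fold) and *Bach1* (1.65-fold), so 3 of the 6 regulators were below the median of all genes.

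**Figure D4:**
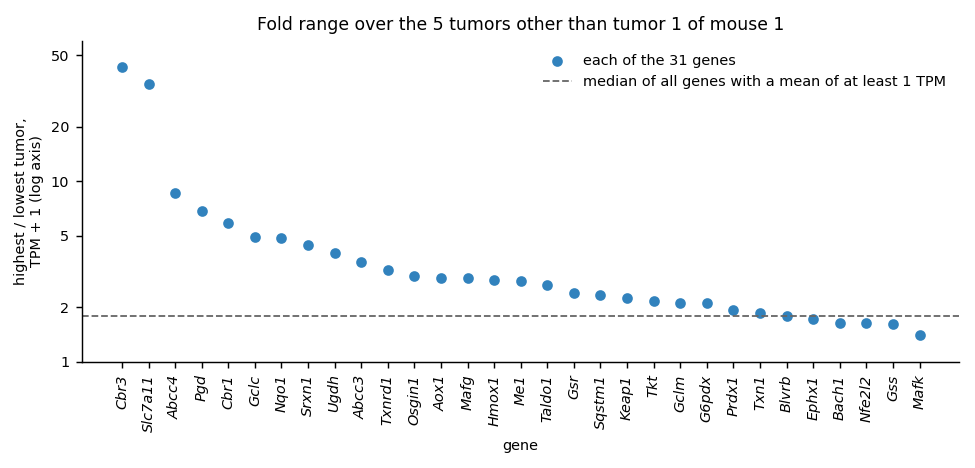
Ratio of the highest to the lowest of 5 tumors (TPM + 1, log axis, without tumor 1 of mouse 1) for each of the 31 genes in descending order, with the median of expressed genes as a dashed line. *Cbr3* and *Slc7a11* stand above 30-fold, and most genes lie above the median of 1.79.

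Macrophage markers were low in the same tumors as the 31 genes. The 12 macrophage markers summed to 341, 743 and 235 TPM in mouse 2, and to 114, 877 and 882 TPM in mouse 1. Among the 5 tumors, 10 of the 12 were lowest in tumor 3 of mouse 2, against 53.6% of expressed genes, and 1 was at least 2-fold lower there. Lymphocyte markers summed to 5.09, 8.92 and 5.03 TPM in mouse 2, and to 1.57, 12.3 and 11.5 TPM in mouse 1, so tumors 1 and 3 of mouse 2 were nearly equal. Of the 8 lymphocyte markers, 3 were lowest in tumor 3 of mouse 2 among the 5 tumors, and only 2 averaged 1 TPM or more. The 31 genes summed to 5325, 8695 and 4135 TPM in mouse 2, and to 2221, 7713 and 7611 TPM in mouse 1. Tumor 1 of mouse 1 and tumor 3 of mouse 2 were at the bottom of this sum and of the macrophage sum. *Lyz2*, the most abundant macrophage marker, had 56.3, 166 and 52.2 TPM in mouse 2, against 46.1, 177 and 156 TPM in mouse 1. The part of macrophages in the values of the 31 genes was not tested. Hepatocyte markers did not follow this order, since their sum was the highest of the 6 in tumor 3 of mouse 2, at 56645 TPM, and was 30695 TPM in tumor 2 of that mouse.

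Erythroid markers, 7 of 8 of which were measured, summed to 1951, 1020 and 4572 TPM in mouse 2, and to 1578, 11076 and 10524 TPM in mouse 1, and *Hbb-bs*, a β-globin gene, had 982, 533 and 2560.1 TPM in mouse 2, against 895, 4592 and 3868 TPM in mouse 1. The remaining lists summed to at most 100.2 TPM in every tumor, with *Fcgr2b* the most abundant endothelial marker, *Dcn* that of stellate cells and fibroblasts, *Cd79b* that of lymphocytes, *S100a9* that of neutrophils and *Spp1* that of cholangiocytes. *Dcn* had 11.4, 48.9 and 13.0 TPM in mouse 2, against 19.1, 46.6 and 52.2 TPM in mouse 1, and *Spp1* had 1.40, 17.6 and 4.17 TPM in mouse 2, against 33.0, 30.4 and 28.7 TPM in mouse 1. Lymphocyte markers were at 0 for 4 of 8 in tumor 1 of mouse 1 and for none in the other tumors.

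**Figure D5:**
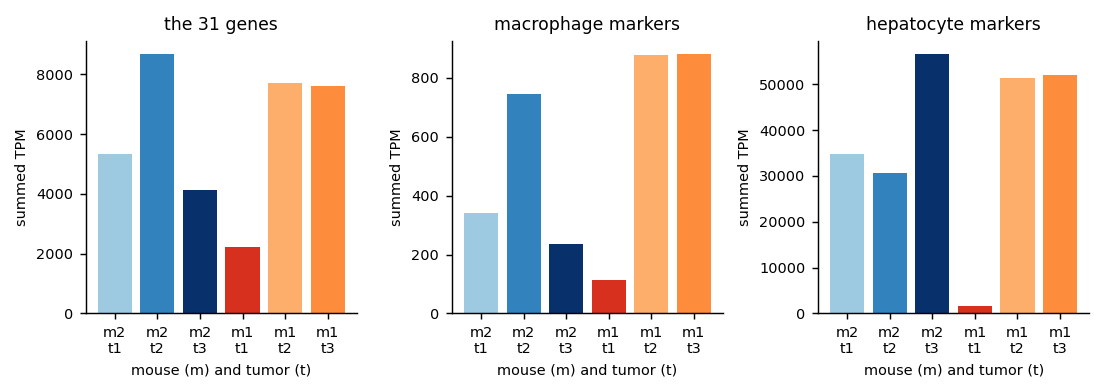
Summed TPM of the 31 genes (left), of 12 macrophage markers (middle) and of 10 hepatocyte markers (right), with 1 bar per tumor and mouse 2 (m2) left of mouse 1 (m1). The 31 genes and the macrophage markers are lowest in tumor 1 of mouse 1 and next lowest in tumor 3 of mouse 2, while the hepatocyte markers are highest in tumor 3 of mouse 2.

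Further genes of the pathway were taken from 5 lists, and edgeR called 0 of their tested genes in either direction with 6 or with 5 tumors. Counts over these lists are to be read against all expressed genes, of which 11.7% were at least 2-fold lower and 36.6% at least 2-fold higher in tumor 1 of mouse 1 than elsewhere, and 53.6% lowest and 2.53% at least 2-fold lower in tumor 3 of mouse 2 among the 5 tumors. The genes of NRF2 turnover and its relatives, 11 of 12 measured, were at least 2-fold higher in tumor 1 of mouse 1 than in every other tumor for 2 and lower for 0. *Rbx1*, the RING subunit of the CUL3 ligase, had 90.1, 107 and 76.0 TPM in mouse 2, against 220.3, 85.4 and 69.8 TPM in mouse 1. *Nfe2l1*, a relative of NRF2 that governs proteasome genes, had 64.5, 59.2 and 41.2 TPM in mouse 2, against 51.2, 87.0 and 81.4 TPM in mouse 1. *Nfe2l3*, another relative, had 0.509, 0.463 and 0.0413 TPM in mouse 2, against 13.5, 0.634 and 0.69 TPM in mouse 1, and was above 1 TPM in tumor 1 of mouse 1 alone.

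Of 14 other NADPH genes, 12 were expressed, and tumor 1 of mouse 1 was at least 2-fold lower than every other tumor for 6 of the 12 and higher for 1. *Idh1*, the cytosolic NADP-dependent isocitrate dehydrogenase, had 152, 199 and 215 TPM in mouse 2, against 32.3, 261 and 263 TPM in mouse 1, and *Idh2*, its mitochondrial counterpart, had 200.4, 191 and 225 TPM in mouse 2, against 98.3, 219 and 231 TPM in mouse 1. *H6pd*, the glucose-6-phosphate dehydrogenase of the endoplasmic reticulum, had 77.1, 93.3 and 60.5 TPM in mouse 2, against 7.74, 137 and 132 TPM in mouse 1. *Me2*, the mitochondrial malic enzyme, had 0.744, 1.23 and 0.69 TPM in mouse 2, against 54.5, 2.69 and 2.93 TPM in mouse 1. In tumor 1 of mouse 1 the malic enzymes and the glucose-6-phosphate dehydrogenases were thus each reversed in rank, with *Me2* above *Me1* and *G6pdx* above *H6pd*, while the other 5 tumors had *Me1* and *H6pd* on top.

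Of 14 other glutathione cycle genes, 11 were expressed, of which 7 were lowest in tumor 3 of mouse 2 among the 5 tumors, a share near that of all expressed genes, and 0 were at least 2-fold lower there. *Anpep*, an aminopeptidase that cleaves the cysteinylglycine released from glutathione, had 144, 117 and 76.3 TPM in mouse 2, against 8.00, 89.6 and 106 TPM in mouse 1, and *Oplah*, the 5-oxoprolinase, had 64.2, 77.7 and 57.2 TPM in mouse 2, against 4.18, 108 and 114 TPM in mouse 1. The γ-glutamyltransferase family genes *Ggt6* and *Ggt7* changed places, with 25.0, 18.9 and 13.8 TPM of *Ggt6* in mouse 2, against 0.452, 34.7 and 32.8 TPM in mouse 1, and 0.135, 0.0625 and 0.0563 TPM of *Ggt7* in mouse 2, against 16.3, 0.389 and 0.356 TPM in mouse 1. Tumor 1 of mouse 1 held the lowest *Ggt6* and the highest *Ggt7* value.

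Of 10 other thioredoxin and peroxiredoxin genes, 2 were at least 2-fold lower and 1 at least 2-fold higher in tumor 1 of mouse 1 than in every other tumor. *Prdx6* had 543, 891 and 510.1 TPM in mouse 2, against 230.5, 906 and 872 TPM in mouse 1, and the mitochondrial *Prdx3* had 334, 418 and 211 TPM in mouse 2, against 115, 293 and 301 TPM in mouse 1. *Prdx2*, a cytosolic peroxiredoxin that is abundant in red cells, had 119, 196 and 218 TPM in mouse 2, against 745, 179.8 and 152 TPM in mouse 1. *Prdx2* was highest in tumor 1 of mouse 1, where the erythroid sum was 1578 TPM, against 1020 to 11076 TPM elsewhere, and the part of red cells in its values was not tested.

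All 18 other NRF2 targets were expressed. In tumor 1 of mouse 1, 10 of the 18 were at least 2-fold lower than in every other tumor, against 11.7% of genes, and 3 at least 2-fold higher, against 36.6%. In tumor 3 of mouse 2, 14 of the 18 were the lowest of the 5, against 53.6% of genes, and 3 at least 2-fold lower than each of the other 4, against 2.53%. The ferritin genes *Ftl1* and *Fth1* were the most abundant, with 6630.1, 10828 and 7252 TPM of *Ftl1* in mouse 2, against 1510.2, 8762 and 8465 TPM in mouse 1, and 5338, 8401 and 5161 TPM of *Fth1* in mouse 2, against 5469.6, 7146 and 7387 TPM in mouse 1. *Cyp2a5*, a cytochrome P450 induced by NRF2 in mouse liver, had 4525, 6263 and 1562 TPM in mouse 2, against 31.9, 6717 and 6748 TPM in mouse 1, and *Gstm3*, a glutathione S-transferase, had 1400.4, 1826 and 725 TPM in mouse 2, against 18.4, 1103 and 1079.7 TPM in mouse 1. Both were lowest in tumor 1 of mouse 1 and next lowest in tumor 3 of mouse 2.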

How the data were processed

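RNAseq of 6 liver tumors, 3 per mouse, was used, and all 6 samples entered. Per the labels the libraries were poly A selected, and the submitters' notes name GRCm38, BWA and Picard. Which release the transcript index held is not stated there. The study's methods describe BWA and Picard for its exome reads, and its software list also names Salmon. The estimated counts deposited by the authors assign fragments to Ensembl transcripts and were not normalized. In the TPM values, as the authors deposited them, each estimated count was divided by effective length and rescaled to a common sum. Transcripts were matched without version to GENCODE vM39 (names alone; 114813 of 116546), and both measures were summed per gene symbol; unmatched transcripts held 0.373% to 0.68% of counts. Positions and start-site regions are RefSeq GRCm38.p6, and 4 genes had no region.

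Rounded counts were tested with edgeR 4.0.16 (quasi-likelihood, TMM, filterByExpr, two-sided, adjusted p under 0.05 over all genes), DESeq2 1.42.0 and limma-voom (limma 3.58.1) in R 4.3.3, checked on simulated data. Ratios used TPM + 1. Other scalings, filters, folds, pseudocounts, a block by tumor number and leaving out each tumor were tried. The 31 genes, the 5 pathway and 8 marker lists were chosen with earlier results of these data known, and the values of tumor 3 of mouse 2 were singled out after they were seen. All 31 genes are named, with fold changes for the 8 of smallest p. From each pathway list the text names the 2 genes of highest mean and the 2 with the largest ratio in tumor 1 of mouse 1, and from each marker list the gene of highest mean. A count of 0 allows up to 3 counts. Sums and plots were made with pandas 2.3.3, numpy 2.4.6 and matplotlib 3.10.9 under Python 3.11.15.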

Additional observations from a re-analysis of the deposited data

Results flagged for a closer look

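In 6 of the 31 genes, tumor 1 of mouse 1 lay so far from the other 5 tumors on log2(TPM + 1) that the gap passed Dixon's 95% critical value for 6 values. It was low for *Mafk* (3.80 TPM), *Blvrb* (54.0 TPM), *Ephx1* (56.3 TPM), *Osgin1* (3.22 TPM) and *Abcc3* (1.72 TPM), and high for *G6pdx* (21.9 TPM). The same test marked 38.8% of 12512 expressed genes, while chance marks about 1 in 20 groups, so the 31 genes held fewer marked members than the whole table. *Slc7a11*, *Cbr3* and *Gclc*, which were also low in that tumor, were not marked.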

How the results depend on the processing

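None of the 31 genes was called under any of the 15 alternatives, with 6 or 5 tumors, and of 120 alternative log2 fold changes of 8 genes, 5 changed sign and 0 changed call. Over all genes, edgeR called 0 higher and 0 lower in mouse 2. DESeq2 called 133 and 69 of 12433 genes. Leaving out 1 tumor gave 0 to 56 higher and 0 to 112 lower by edgeR, with the highest counts without tumor 1 of mouse 1. Without that tumor, DESeq2 called 781 and 587 of 13360 genes. Of 13365 genes, limma-voom called 177 and 301, and edgeR with library size alone 20 and 131. All fits without it have only the closest pair of tumors as mouse 1. Their counts may therefore rest on an understated spread within that mouse. Tumor numbers did not pair the samples (r of -0.04 to 0.05 between same-numbered tumors), and the fit with tumor number as replicate block called 0 and 0, with 887 genes at an unadjusted p under 0.05. TMM moved the median log2 fold change of all genes to -0.05, against -0.55 with library size alone, and to 0.01, against -0.24, without tumor 1 of mouse 1.

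The log2 fold change of *Mafg* ran from -1.18 to 0.068 as 1 tumor was left out, positive without tumor 1 of mouse 1 alone, and was 0.064 by DESeq2 without it. With library size alone and without that tumor, *Gss* had -0.033, *Mafk* -0.15 and *Ephx1* -0.014. Genes of the 31 at least 2-fold higher in tumor 1 of mouse 1 than elsewhere numbered 2, against 1 on the TMM scale and 1 at 4-fold. Those lower numbered 12, against 24 on the TMM scale and 8 at 4-fold. In the same order, 36.6%, 18.3% and 15.2% of expressed genes were higher, and 11.7%, 22.4% and 6.85% lower. For tumor 3 of mouse 2 the 9 lower genes became 3 at 4-fold, against 2.53% and 0.448% of expressed genes. Of 248 alternative means of single genes, 5 moved by more than 1 SD. The cause of these shifts was not tested. Each tumor is 1 library and both mice share 1 condition, so no value here compares tumor with liver, and the most variable genes had standard errors up to 1.80 on the log2 scale.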

Other observations

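These values were chosen after they were seen and carry no test. *Gpx2*, a glutathione peroxidase and NRF2 target, had 2.21, 19.5 and 0 TPM in tumors 1, 2 and 3 of mouse 2, against 0, 23.4 and 20.2 TPM in mouse 1. It was thus listed at 0 in the same pair of tumors that were lowest in *Slc7a11* and *Cbr3*. The partner of xCT in the membrane, *Slc3a2*, had 71.0, 104.5 and 33.7 TPM in mouse 2, against 41.8, 59.6 and 57.7 TPM in mouse 1, lowest in the same pair of tumors but over a smaller range than *Slc7a11*. The ratio of *Slc3a2* to *Slc7a11* TPM was 6.85, 2.46 and 129 in mouse 2, and 46.6, 2.14 and 2.02 in mouse 1.

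The ratio of *Txn1* to *Txnrd1* TPM was 7.16, 6.49 and 8.60 in mouse 2, and 2.80, 3.43 and 3.40 in mouse 1. The mice did not overlap in this ratio, which needs no scaling between tumors, and tumor 1 of mouse 1 lay near the other 2 tumors of its mouse. How many other gene pairs separate the mice was not counted. Tumors 2 and 3 of mouse 1 were also the closest pair of all, so the ratio is a description alone.

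Transcript assignments within some genes were uneven between tumors. *Prdx1-201* was given 30.2%, 32.0% and 27.9% of *Prdx1* TPM in mouse 2, against 0%, 0% and 33.5% in mouse 1, and *Me1-204*, without a defined coding sequence, held 21.8%, 21.7% and 23.3% of *Me1* TPM in mouse 2, against 0%, 24.2% and 22.0% in mouse 1. Of the 31 genes, 18 had at least 95% of their TPM on coding transcripts in every tumor.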
